A study of Saccharomyces cerevisiae with 16 samples.

Results

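The cytosolic ribosomal protein genes of budding yeast (Saccharomyces cerevisiae) were described across 16 libraries of polyadenylated RNA. A gene was included when its standard name began with RPL or RPS followed by a digit, which gave 132 of the 6692 genes in the count table. Of these, 76 encode proteins of the large subunit (RPL) and 56 proteins of the small subunit (RPS). They form 57 pairs of paralogs A and B and 18 single genes, so that 75 proteins are represented. All 132 genes passed the filter on low counts, and the lowest count of any of them in any library was 253.

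There were 4 groups of 4 libraries, with replicates numbered 2 to 5. The first group carried the H113N substitution in histone H3 together with YFH1 placed behind the GAL1 promoter, which is shut in medium without galactose and is called YFH1 off here. The second carried H3 H113N alone, the third carried the GAL1-driven YFH1 with normal H3, and the fourth was wild type (WT). YFH1 encodes frataxin, a mitochondrial protein of iron-sulfur cluster assembly, and the series title describes histone H3 as a cupric reductase, an activity that H113N is meant to disturb. The growth protocol attached to all samples is worded for YFH1-off cells: a shift of cultures from YPG to SC medium at 30 °C, growth for 36 h with dilution every 12 h, and a last 8 h, 44 h in all. The labels do not give the number of strain isolates behind each group or state that replicates were separate cultures, so p-values measure the spread between these libraries. YFH1 itself averaged 10.6 ± 1.74 CPM (counts scaled to the library total) in H113N with YFH1 off, 51.8 ± 5.06 in H113N, 7.16 ± 1.29 in WT with YFH1 off and 63.5 ± 3.31 in WT (SD, n = 4 each), in the order that the labels give.

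The ribosome is built from ribosomal RNA and one copy of nearly every ribosomal protein, and growing yeast spends a large part of its transcription on making these parts. The genes are known to be driven together by Rap1 with Fhl1, Ifh1, Sfp1 and Hmo1, downstream of TOR and protein kinase A signalling. Most of them survive as paralogs from an ancient genome duplication, many hold an intron, and several are known to limit their own expression through splicing or RNA decay.

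Library totals ran from 6694390 to 10663540 counts. CPM values use edgeR's TMM factors as the scale between libraries, and a gene was called at a Benjamini-Hochberg adjusted p under 0.05 in edgeR's quasi-likelihood test over the 5876 genes tested. One library stood apart. WT replicate 2 was the highest or the lowest of the 4 WT libraries in paralog A share in 50 of the 57 pairs, on the side of the H113N libraries in 41 of them, whereas the other WT libraries were the extreme one in 20, 21 and 23 pairs. Its median distance from the other WT libraries was 3.35 percentage points of A share, against 1.25 to 1.33 points for the others. Counts and medians over all members or pairs that use WT with YFH1 on are therefore also given without it, as are other values where leaving it out changed a call or moved the value by over 1.5 times.

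Ribosomal protein genes took 11.1 ± 0.236% of all counts in H113N with YFH1 off and 11.7 ± 0.250% in WT with YFH1 off. With YFH1 on they took 10.9 ± 0.244% in H113N and 11.8 ± 0.524% in WT (SD, n = 4 each). In both YFH1 states every H113N library lay below every WT library. The YFH1-off and YFH1-on libraries overlapped in this share on both H3 backgrounds. In RNA from whole cultures, less RNA of a gene in every cell and fewer cells that express it cannot be told apart.

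**Figure D1:**
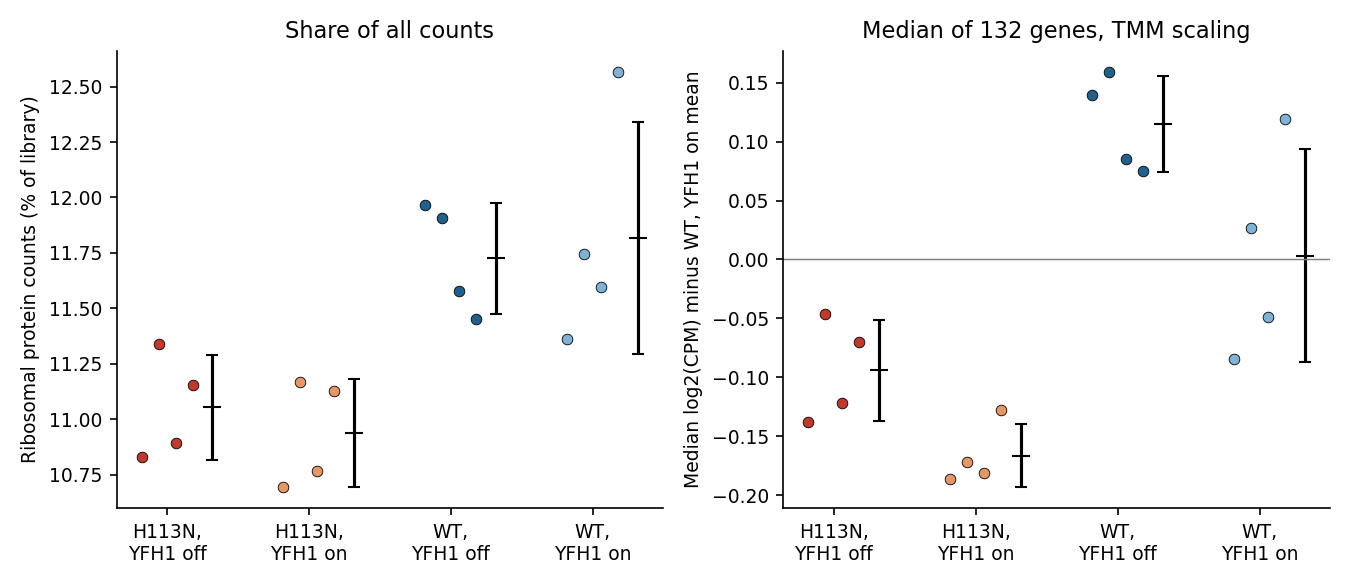
Ribosomal protein counts as a percentage of each library's counts (left) and the median over the 132 genes of log2 CPM minus its mean in WT with YFH1 on (right). Points are libraries in replicate order and bars are means ± SD of 4 libraries; the H113N libraries lie at 10.7 to 11.3% and the WT libraries at 11.4 to 12.6%.

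With YFH1 off, 92 ribosomal protein genes were lower and 0 higher in H113N than in WT, where 25.2% of all tested genes were called lower and 27.2% higher. The median log2 fold change of the 132 genes was -0.19, against 0.01 over all tested genes. DESeq2's Wald test made 96 calls, also with 0 higher. Fitting only the groups compared gave 100 lower and 3 higher. Without replicate 2 of every group 76 were lower and 1 higher. Keeping only genes with at least 10 counts in every library gave 83 lower and 1 higher. The count of calls fell to 66 without replicate 4. The shift touched both subunits, with medians of -0.19 for the 76 RPL genes and -0.18 for the 56 RPS genes, and both single genes (median -0.17, 15 of 18 called lower) and paralogs (median -0.19, 77 of 114 called lower). With library size as the only scaling, 45 genes were lower and 12 higher and the members' median was -0.06, while the median of all genes moved to 0.13. The members then lay 0.20 below all genes, a distance that a change of scaling leaves nearly unchanged by construction.

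With YFH1 on, 85 members were lower and 2 higher in H113N than in WT, where 23.2% of all tested genes were called lower and 23.0% higher. Their median log2 fold change was -0.17, against 0.00 over all tested genes. Without WT replicate 2 the counts were 93 lower and 2 higher and the median was -0.21. The count of calls fell to 51 without replicate 3 of every group and to 51 without replicate 5. Of the 85 genes lower with YFH1 on, 72 (84.7%) were also among the 92 lower with YFH1 off. That is 78.3% of the second list, and the comparisons share no library. Of all 132 members, 64.4% and 69.7% were lower in them, so a large overlap follows from those shares alone. The overlap was 76 of 93 without WT replicate 2. With library size as the only scaling, 49 members were lower and 6 higher.

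With YFH1 off against on in WT, 54 members were higher and 4 lower, where 24.5% of all tested genes were called higher and 25% lower. The median log2 fold change was 0.12, against 0.01 over all tested genes. This rise was small and depended on the scaling: with library size as the only scaling, 15 members were higher and 21 lower, the members' median was 0.00077 and that of all genes -0.11. Under both scalings the members lay 0.11 above all genes, because a change of scaling moves all genes nearly alike. Without WT replicate 2 the counts were 46 higher and 6 lower and the median was 0.07. Without replicate 3 of every group 37 members were called, and without replicate 4 there were 30.

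With YFH1 off against on in H113N, 8 members were higher and 3 lower, where 11.8% of all tested genes were called higher and 8.71% lower, so that the share of members called, in either direction, was below that of all genes. The median was 0.09, against 0.02 over all tested genes. The count of calls was 5 without replicate 3, 3 without replicate 4 and 6 without replicate 5, and DESeq2 made 19. With library size as the only scaling, 4 were higher and 7 lower. Of the 8 genes higher here, 7 were also among the 54 higher with YFH1 off in WT, and 6 among the 46 without WT replicate 2. Those 54 are 40.9% of all 132 members.

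**Figure D2:**
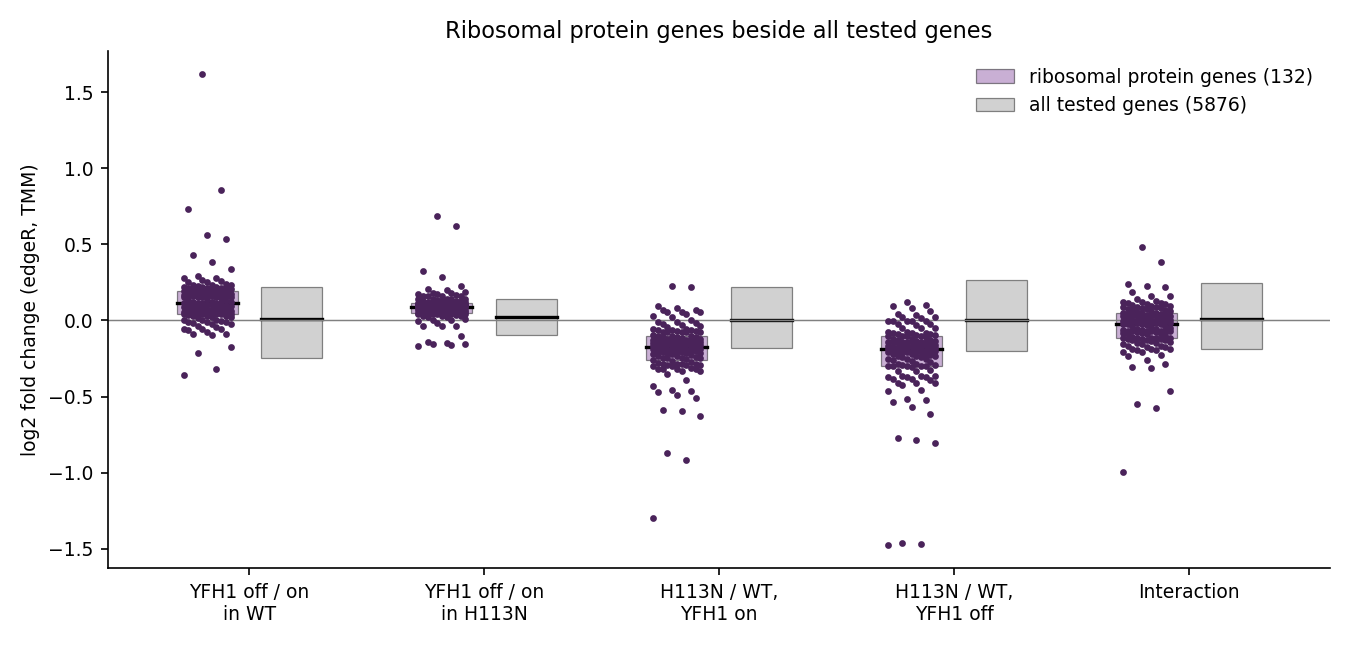
Log2 fold changes (edgeR, TMM scaling) of the 132 ribosomal protein genes (points and purple boxes) beside all 5876 tested genes (grey boxes) in each comparison; boxes span the quartiles and lines mark medians. The members' median is -0.17 and -0.19 in H113N against WT and 0.12 and 0.09 with YFH1 off against on, and the points furthest from 0 are single paralogs.

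The single-copy genes include the most abundant messages per length of coding sequence. RPS31, which encodes a small-subunit protein made as a fusion to ubiquitin, averaged 5710 ± 324 CPM per kb over the 16 libraries, and RPS2 4182 ± 382 (SD, n = 16). At the low end stood minor paralogs: RPL15B at 87.4 ± 11.4, RPL22B at 173.9 ± 50.8 and RPL35B at 218 ± 18.3 CPM per kb. RPL35B shares 81.4% of its 50-base words with other places in the genome, so its counts may be split with RPL35A. Summed over paralogs, the 57 paired proteins ranged from 580 CPM per kb (RPL35) to 6443 (RPS26) with a median of 3272, and the 18 single genes from 1736 to 5710 with a median of 3482. The ranges of paired and single genes overlapped widely. The lowest sums were those of RPL35, RPL1 (1107) and RPL7 (1151), whose copies share 81.4, 81.0 and 62.3% of their 50-base words. Reads that fit both copies may be missing from such sums, which was not tested. The low end of the paired range is therefore uncertain as a level of message.

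Among single genes, RPL3, whose protein lies at the peptidyl transferase centre, was lower in H113N in both YFH1 states. It stood at 4274, 4452, 4263 and 4560 CPM in H113N with YFH1 off and at 5829, 5872, 5655 and 5622 CPM in WT with YFH1 off. With YFH1 on it stood at 3642, 3701, 3903 and 4137 CPM in H113N and at 5270, 5355, 5457 and 5765 CPM in WT. The groups did not overlap in either state. RPL3 fell in H113N, with log2 fold changes of -0.39 with YFH1 off (SE 0.0486, adjusted p = 4.81e-06 by edgeR) and of -0.51 with YFH1 on (SE 0.0486, adjusted p = 4.46e-07 by edgeR); it was chosen after its values were seen. RPS3, a protein at the entry of the messenger channel chosen in the same way, fell in H113N, with log2 fold changes of -0.42 with YFH1 off (SE 0.0593, adjusted p = 1.71e-05 by edgeR) and of -0.31 with YFH1 on (SE 0.0593, adjusted p = 0.000407 by edgeR).

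Within the 57 pairs, the balance between A and B also differed between groups. The A share, counts of A over counts of A plus B in the same library, does not depend on how libraries are scaled. A was the more abundant paralog in 33 pairs and B in 24. The less abundant one held under 10% of the pair's counts in 3 pairs, 10 to 25% in 6, 25 to 40% in 23 and 40% or more in 25. Coding sequences of a pair were 78.9 to 99.4% identical (median 93.2%), and pairs shared a median of 6.62% of their 50-base words, with a highest value of 81.4%. How the deposited counts treated reads that fit both copies is not given in the sources used here, so shares of pairs with much shared sequence are uncertain.

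With YFH1 off, the A share of 40 of 57 pairs did not overlap between H113N and WT. Among single genes in this comparison, the CPM of the groups did not overlap for 53.6% of all tested genes and 52.4% were called. A share within a pair and the level of a gene are different measures, so these percentages are a setting for the pair counts and not their expectation. The less abundant paralog held a lower share in H113N in 31 of these pairs and a higher share in 9. The median log2 fold change was -0.27 for the less abundant paralogs and -0.14 for their partners. With YFH1 on, shares of 15 pairs did not overlap between H113N and WT (37.1% of all tested genes did not overlap in CPM and 46.2% were called), with the less abundant paralog lower in 12 and higher in 3, and medians of -0.22 for the less abundant paralogs and -0.14 for their partners. Leaving out any library can only keep or raise such a count. Without WT replicate 2, 34 pairs did not overlap, 30 with the less abundant paralog lower and 4 higher, and the medians were -0.27 and -0.16. Without each of the other WT libraries the count was 16, 17 and 19. With YFH1 off against on in WT, shares of 21 pairs did not overlap (42.5% of all tested genes did not overlap in CPM and 49.5% were called), with the less abundant paralog at a higher share in 17 and a lower share in 4, and medians of 0.16 for the less abundant paralogs and 0.07 for their partners. This direction was nearly lost in the pair counts without WT replicate 2. Then 35 pairs did not overlap, 19 with the less abundant paralog higher and 16 lower. The medians, 0.11 and 0.06, kept their order. Without each of the other WT libraries the count was 22, with 18 higher and 4 lower. In H113N, YFH1 off against on gave 14 such pairs (27.3% of all tested genes did not overlap in CPM and 20.6% were called), 10 of them with the less abundant paralog higher.

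**Figure D3:**
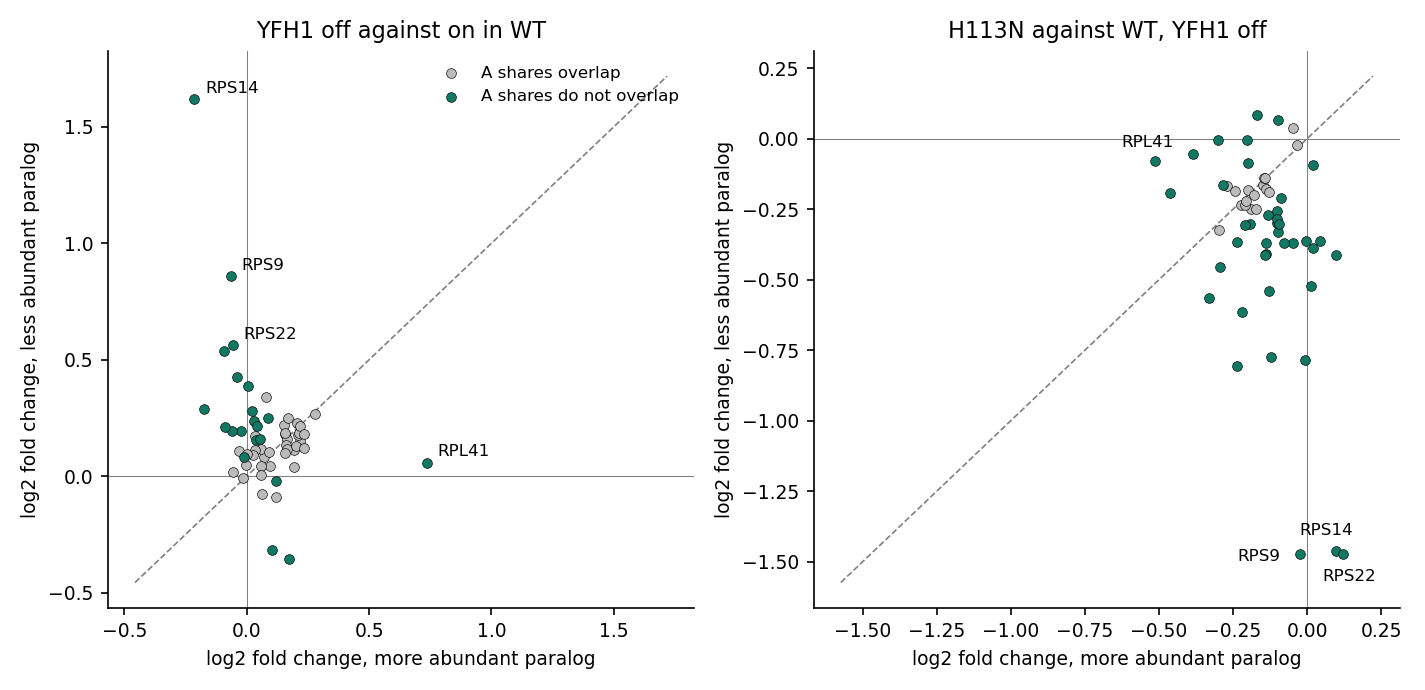
Log2 fold change of the less abundant paralog against that of its partner for the 57 pairs, with YFH1 off against on in WT (left) and H113N against WT with YFH1 off (right). Green points are pairs whose A shares did not overlap between the groups (21 on the left, 40 on the right), and the dashed line marks equal change; RPS14, RPS9 and RPS22 lie furthest from it on the right, RPS14, RPS9 and RPL41 on the left, and RPS14 and RPS9 lie on opposite sides in the panels.

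The 3 pairs with the widest gap between the fold changes of A and B in H113N against WT with YFH1 off belong to the small subunit. RPS14A (YCR031C, chrIII:177500-178220, minus strand) and RPS14B (YJL191W, chrX:73787-74611, plus strand) encode the protein uS11 on the platform of the small subunit, and Rps14 is known to bind the RPS14B transcript and limit its splicing. Stretches of the coding sequence that tell the copies apart are shown for RPS14, RPS9 and RPS22, because the finding rests on reads being assigned to the right copy. They come from the reference genome of build sacCer3 (R64), read 5′ to 3′ on the coding strand, with bases that differ between the paralogs in capitals. The stretches lie at chrIII:177814-177903 (RPS14A, minus strand), chrX:74208-74297 (RPS14B, plus strand), chrXVI:405458-405547 (RPS9A, plus strand), chrII:604928-605017 (RPS9B, plus strand), chrX:75213-75302 (RPS22A, minus strand) and chrXII:856442-856531 (RPS22B, plus strand).
RPS14A: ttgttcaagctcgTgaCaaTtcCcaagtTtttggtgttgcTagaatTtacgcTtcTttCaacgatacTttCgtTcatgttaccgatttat
RPS14B: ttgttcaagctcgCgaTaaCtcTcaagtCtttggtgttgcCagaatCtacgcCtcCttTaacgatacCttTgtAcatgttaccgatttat
RPS9A: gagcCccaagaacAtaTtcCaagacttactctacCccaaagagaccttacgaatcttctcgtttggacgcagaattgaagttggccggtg
RPS9B: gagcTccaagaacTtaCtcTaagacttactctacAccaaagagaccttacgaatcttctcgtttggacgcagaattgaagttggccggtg
RPS22A: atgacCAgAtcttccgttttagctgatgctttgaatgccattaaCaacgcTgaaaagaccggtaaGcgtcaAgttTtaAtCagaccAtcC
RPS22B: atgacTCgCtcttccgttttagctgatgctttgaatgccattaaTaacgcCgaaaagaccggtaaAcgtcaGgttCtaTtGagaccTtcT
The stretches hold 13 differing bases for RPS14, 5 for RPS9 and 12 for RPS22. Over all their coding exons, without introns and UTRs, the pairs shared 12.0%, 5.02% and 0% of their 50-base words.

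RPS14B was the member that rose most with YFH1 off in WT. It stood at 118.5, 122.5, 115.7 and 126.8 CPM in H113N with YFH1 off, at 74.1, 80.9, 79.5 and 79.4 CPM in H113N, at 339.8, 345.4, 331.4 and 315.7 CPM in WT with YFH1 off and at 88.8, 98.7, 112.6 and 133.6 CPM in WT. Every YFH1-off library lay above every YFH1-on library on the same H3 background, and WT with YFH1 off lay above all other groups. RPS14B rose by a log2 fold change of 1.62 with YFH1 off in WT (SE 0.0902, adjusted p = 1.85e-10 by edgeR) and by 0.62 in H113N (SE 0.0907, adjusted p = 1.24e-04 by edgeR). The YFH1 effect in H113N minus that in WT was -0.995 (SE 0.127, adjusted p = 1.45e-05 by edgeR). In the same comparison in WT, RPS14A fell by 0.21 (SE 0.0456, adjusted p = 9.29e-04 by edgeR). The A share of RPS14 was 88.4, 88.8, 89.2 and 88.5% in H113N with YFH1 off, 92.5, 92.1, 92.2 and 92.3% in H113N, 72.6, 72.8, 72.5 and 73.1% in WT with YFH1 off, and 91.9, 91.6, 89.6 and 88.9% in WT. The 4 groups did not overlap except H113N with YFH1 off and WT, which met near 89%. The sum of RPS14A and RPS14B moved little beside this: 1074 ± 37.8 CPM in H113N with YFH1 off, 1013 ± 20.2 in H113N, 1223 ± 42.2 in WT with YFH1 off and 1140 ± 57.9 in WT (SD, n = 4 each).

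RPS9A (YPL081W, chrXVI:404950-406044, plus strand) and RPS9B (YBR189W, chrII:604508-605508, plus strand) encode uS4, one of the first proteins to join the small subunit, and RPS9A is known to be held down through its intron. RPS9A stood at 89.0, 92.0, 86.2 and 95.3 CPM in H113N with YFH1 off, at 63, 49.4, 52.9 and 60.2 CPM in H113N, at 242, 265, 245.5 and 254 CPM in WT with YFH1 off and at 86.1, 169, 149 and 151 CPM in WT. WT replicate 2, at 86.1 CPM, lay far below the other WT libraries but still above every H113N library with YFH1 on. RPS9A fell in H113N, with log2 fold changes of -1.47 with YFH1 off (SE 0.143, adjusted p = 2.67e-07 by edgeR) and of -1.30 with YFH1 on (SE 0.147, adjusted p = 2.62e-06 by edgeR; -1.47 without WT replicate 2). With YFH1 off it rose by 0.86 in WT (SE 0.141, adjusted p = 8.05e-05 by edgeR; 0.69 without WT replicate 2) and by 0.68 in H113N (SE 0.147, adjusted p = 0.00317 by edgeR). The difference between those effects, -0.17, did not pass the test (SE 0.203, adjusted p = 0.562 by edgeR; -0.0039 without WT replicate 2). RPS9B, the copy that holds most counts, passed in none of these comparisons, with log2 fold changes between -0.07 and -0.03. RPS9A accordingly held 5.35, 5.12, 5.12 and 5.39% of the pair's counts in H113N with YFH1 off, 3.69, 2.87, 3.15 and 3.27% in H113N, 12.6, 13.4, 13 and 13.5% in WT with YFH1 off, and 4.82, 8.65, 8.23 and 7.63% in WT.

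RPS22A (YJL190C, chrX:74910-75302, minus strand, no intron) and RPS22B (YLR367W, chrXII:856442-857317, plus strand) encode uS8, a protein of the small-subunit body, and the RPS22B transcript is known to carry an intron cleaved by the RNase III enzyme Rnt1. RPS22B stood at 154.8, 155.1, 148.5 and 150.5 CPM in H113N with YFH1 off, at 145.1, 140.9, 137.6 and 180.9 CPM in H113N, at 409.8, 448, 414.9 and 414.7 CPM in WT with YFH1 off and at 237.4, 295.7, 286.2 and 323.9 CPM in WT. The H113N groups lay below the WT groups and overlapped each other. RPS22B fell in H113N, with log2 fold changes of -1.47 with YFH1 off (SE 0.0900, adjusted p = 1.09e-09 by edgeR) and of -0.92 with YFH1 on (SE 0.0894, adjusted p = 4.94e-07 by edgeR). It rose with YFH1 off in WT by 0.56 (SE 0.0881, adjusted p = 5.26e-05 by edgeR), whereas its value in H113N was 0.01 (adjusted p = 0.955 by edgeR); the difference of -0.55 passed the test (SE 0.125, adjusted p = 0.00293 by edgeR). RPS22A passed in none of the 4 comparisons of groups, with values from -0.06 to 0.13. Its difference between the YFH1 effects, 0.19, missed the threshold (adjusted p = 0.142 by edgeR) and passed it without WT replicate 2 (0.22, adjusted p = 0.0487 by edgeR). The A share was 84.0 to 85.3% in H113N with YFH1 off, 80.6 to 85.1% in H113N, 63.8 to 66.8% in WT with YFH1 off and 72.2 to 75.7% in WT, so that no H113N library overlapped a WT library.

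In the large subunit, the rule on gaps between paralogs named RPL4 (H113N against WT with YFH1 on, and YFH1 off against on in H113N) and RPL41 (YFH1 off against on in WT), and RPL8A was among the members that fell most in H113N. RPL4 encodes uL4, which lines the peptide exit tunnel. RPL4B stood at 325.6, 340.3, 320 and 343.3 CPM in H113N with YFH1 off, at 264.1, 268.9, 275.7 and 279.3 CPM in H113N, at 506.3, 500.1, 473.6 and 488 CPM in WT with YFH1 off and at 378.7, 441.7, 423.1 and 434.3 CPM in WT. The 4 groups did not overlap. RPL4B fell in H113N, with log2 fold changes of -0.57 with YFH1 off (SE 0.0495, adjusted p = 7.50e-08 by edgeR) and of -0.62 with YFH1 on (SE 0.0497, adjusted p = 5.17e-08 by edgeR), and rose with YFH1 off by 0.29 in H113N (SE 0.0496, adjusted p = 5.49e-04 by edgeR) and by 0.23 in WT (SE 0.0493, adjusted p = 9.57e-04 by edgeR). RPL4A, its partner on chromosome II, fell in H113N, with log2 fold changes of -0.33 and of -0.14 in the same comparisons. In the comparisons that named this pair, the other tested genes of chromosome II had medians of 0.21 and -0.17. RPL4B is on chromosome IV, and the part of that shift in the gap between the copies was not tested. The pair shares 72.7% of its 50-base words, so part of its reads cannot be placed with certainty.

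RPL41B, one of the genes for the very small basic protein eL41, stood at 117.9, 122.6, 124.5 and 124.7 CPM in H113N with YFH1 off, at 96.1, 111.9, 113.5 and 116 CPM in H113N, at 164.4, 194.7, 180.3 and 160.1 CPM in WT with YFH1 off and at 98.0, 114.7, 97.9 and 109.4 CPM in WT. WT with YFH1 off stood highest and H113N with YFH1 off next, and the groups with YFH1 on overlapped. RPL41B rose with YFH1 off in WT by 0.74 (SE 0.0737, adjusted p = 3.28e-07 by edgeR), against 0.16 in H113N (adjusted p = 0.139 by edgeR), and the difference of -0.57 passed the test (SE 0.104, adjusted p = 4.49e-04 by edgeR). RPL41A did not pass in either, at 0.06 and 0.09. The RPL41 copies share 69.0% of their 50-base words.

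RPL8A, which encodes eL8 of the large subunit, stood at 535.8, 526.3, 479.4 and 553.3 CPM in H113N with YFH1 off, at 533.8, 379.6, 446.6 and 488.6 CPM in H113N, at 948.9, 933.8, 883.1 and 898.3 CPM in WT with YFH1 off and at 649.4, 904.7, 880.6 and 948.7 CPM in WT. WT replicate 2 held the 649.4 CPM, between the H113N libraries and the other WT libraries. RPL8A fell in H113N, with log2 fold changes of -0.81 with YFH1 off (SE 0.108, adjusted p = 9.76e-06 by edgeR) and of -0.87 with YFH1 on (SE 0.108, adjusted p = 6.79e-06 by edgeR; -0.98 without WT replicate 2). RPL8B fell too, with log2 fold changes of -0.24 and -0.29, and YFH1 moved neither copy past the test on either H3 background.

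Other pairs are summarised by the mean A share in each group and were picked for the size of their change after it was seen. RPL9A, of the uL6 pair, held 74.6% of its pair's counts in H113N with YFH1 off and 63.1% in WT with YFH1 off, and the gap came from RPL9B, which fell by 0.78 (SE 0.139, adjusted p = 1.75e-04 by edgeR) while RPL9A had -0.01. RPS23A, for the decoding-centre protein uS12, held 41.1% in H113N with YFH1 off and 50.2% in WT with YFH1 off, and fell by 0.52 (SE 0.0636, adjusted p = 3.80e-06 by edgeR) while RPS23B had 0.01. RPL7B fell by 0.77 (SE 0.127, adjusted p = 7.94e-05 by edgeR) and its partner RPL7A by 0.12 (SE 0.0456, adjusted p = 0.0321 by edgeR). RPL27B fell by 0.54 with YFH1 off (SE 0.0794, adjusted p = 2.78e-05 by edgeR), whereas RPL27A did not pass, at -0.13. With YFH1 off against on in WT, both paralogs were called in opposite directions in 2 pairs, RPS14 and RPS21. RPS21A rose by 0.29 (SE 0.0592, adjusted p = 6.33e-04 by edgeR) and RPS21B fell by 0.17 (SE 0.0452, adjusted p = 0.00431 by edgeR), and the A share of RPS21 was 46.2 to 50.6% in WT with YFH1 off and 38.9 to 41.9% in WT.

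Some genes fell with YFH1 off in WT, where 54 members rose. RPL1A, for the uL1 protein of the stalk at the exit site, stood at 279, 318, 302 and 307 CPM in H113N with YFH1 off, at 276, 328, 299 and 283 CPM in H113N, at 297, 293, 280 and 270 CPM in WT with YFH1 off and at 357, 395, 328.5 and 378 CPM in WT. WT stood above the other 3 groups, although H113N replicate 3, at 328 CPM, lay just under its lowest library. RPL1A fell by 0.36 in WT (SE 0.0661, adjusted p = 2.71e-04 by edgeR) and had a value of 0.03 in H113N (adjusted p = 0.846 by edgeR). The difference of 0.38 passed the test (SE 0.0933, adjusted p = 0.00498 by edgeR) but not without replicate 5 (0.30, adjusted p = 0.0934 by edgeR), and the copies of RPL1 share 81.0% of their 50-base words. RPL18B, for eL18 of the large subunit, stood at 144.9, 159.8, 137.5 and 148.7 CPM in H113N with YFH1 off, at 137.9, 127.2, 135.1 and 125.7 CPM in H113N, at 135.7, 156.7, 150.6 and 150.3 CPM in WT with YFH1 off and at 139.6, 202.4, 194.8 and 202.3 CPM in WT. The value of 139.6 CPM was that of WT replicate 2, which lay among the other groups. RPL18B fell by 0.32 in WT (SE 0.0944, adjusted p = 0.0102 by edgeR; -0.43 without WT replicate 2), and this call was lost without replicate 4 (adjusted p = 0.0715 by edgeR) or 5 (adjusted p = 0.0727 by edgeR).

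YFH1 itself had log2 fold changes of -3.14 with YFH1 off in WT and -2.30 in H113N. This difference of 0.84 passed the test (SE 0.170, adjusted p = 0.00114 by edgeR), so the fold change between the YFH1 states was smaller in H113N. Both states took part in it. In H113N against WT, YFH1 had -0.29 with YFH1 on (SE 0.0956, adjusted p = 0.0200 by edgeR). With YFH1 off it had 0.55 (SE 0.140, adjusted p = 0.00367 by edgeR). The contrast between both YFH1 effects, H113N minus WT, passed the test for 16 members, 5 positive and 11 negative, where 17% of all tested genes were called positive and 13.8% negative. The members' median was -0.02 and turned to 0.01 without WT replicate 2, when 10 were positive and 10 negative. The split moved in both directions with the libraries left out: 10 positive and 5 negative without replicate 2 of every group, 1 and 8 without replicate 3, 2 and 4 without replicate 4, and 0 and 12 without replicate 5. The negative ones were RPS14B, RPL41B, RPS22B, RPS23A, RPS29B and 6 genes of chromosome II, and the positive ones were RPL18B, RPL1A, RPS14A, RPS21B and RPL9A. Of the chromosome II genes, RPS6B missed the threshold without WT replicate 2. RPS14A had a difference of 0.24 (SE 0.0645, adjusted p = 0.00916 by edgeR), which did not pass without replicate 3 or 5. RPL18B had 0.48 (SE 0.134, adjusted p = 0.0111 by edgeR), which did not pass without replicate 3, 4 or 5. With library size as the only scaling, 10 members were positive and 7 negative.

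The 10 members on chromosome II are given apart, because that chromosome's genes had a raised median in H113N. With YFH1 on, the other 384 tested genes of that chromosome had a median log2 fold change of 0.21 in H113N against WT, against -0.01 for the 5360 on other chromosomes. In the 4 H113N libraries this median lay between 0.17 and 0.28 above the WT mean, whereas in the other groups it lay between -0.01 and 0.03. Next to chromosome II in that comparison stood chromosome V, which holds 6 members and whose 261 other tested genes had a median of 0.11. The chromosome II members had a median of 0.03 and the members elsewhere one of -0.18. Set against the other genes of their own chromosome, the chromosome II members lay 0.18 lower, and the members lay lower than their neighbours on all 15 chromosomes that hold any, by 0.06 to 0.34. The part of this shift in the results for these 10 genes was not tested.

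Both members that rose in H113N with YFH1 on are on chromosome II. RPL23A, for the protein uL14 at the subunit interface, stood at 609, 631.5, 614.5 and 705 CPM in H113N and at 520, 548, 547 and 573 CPM in WT. The groups did not overlap, and RPL23A rose by 0.23 (SE 0.0521, adjusted p = 0.00203 by edgeR). RPL32, for eL32, stood at 1534, 1554, 1527 and 1707 CPM in H113N and at 1349, 1354, 1261 and 1457 CPM in WT, and rose by 0.22 (SE 0.0539, adjusted p = 0.00309 by edgeR). The 3 members that fell with YFH1 off in H113N are also on chromosome II. RPL21A fell by 0.17 (SE 0.0552, adjusted p = 0.0435 by edgeR), RPS6B fell by 0.16 (SE 0.0533, adjusted p = 0.0443 by edgeR) and RPL19B fell by 0.15 (SE 0.0453, adjusted p = 0.0253 by edgeR). RPL21A and RPS6B missed the threshold without any single replicate number and RPL19B without replicate 2, 4 or 5. The other tested genes of chromosome II had a median of -0.17 in that comparison, the chromosome II members -0.15 and the members elsewhere 0.10. With YFH1 off, H113N against WT gave chromosome II members a median of -0.18 and members elsewhere one of -0.19.

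**Figure D4:**
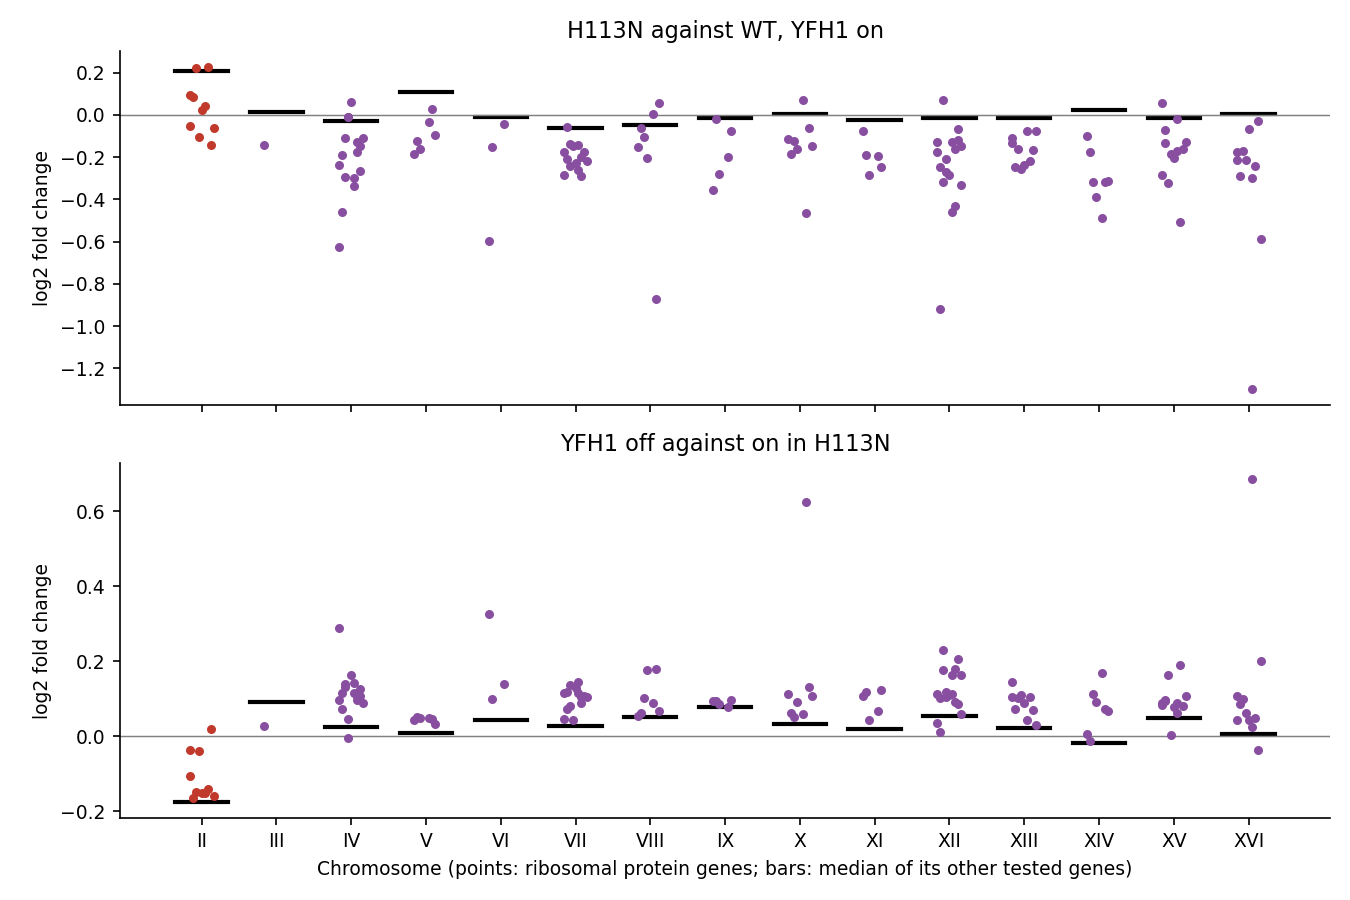
Log2 fold change of each ribosomal protein gene by chromosome (points, chromosome II in red) with the median of the other tested genes of that chromosome (black bars), for H113N against WT with YFH1 on (top) and YFH1 off against on in H113N (bottom). On chromosome II the bar lies at 0.21 in the top panel and -0.17 in the bottom panel, and the medians of its members are 0.03 and -0.15.

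Introns and promoter letters were set beside these changes, as features that no rule above used. An intron is annotated in 88 members and none in 44. With YFH1 off, members with an intron had a median log2 fold change of -0.19 in H113N against WT, with 59 of 88 called lower, and those without had -0.19, with 33 of 44. With YFH1 off against on in WT the medians were 0.10 with an intron and 0.16 without, and 0.06 and 0.12 when WT replicate 2 was left out. Of the 90 introns, 67 open with GTATGT and 84 hold the branch-point letters TACTAAC, and their lengths run from 147 to 561 bases.

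The Rap1 core letters ACCCNNACA, searched on both strands in the 600 bases before the start codon, were found before 56 of 132 members (42.4%), against 6.45% of all 5999 promoters of that length. Their 65 matches lay 162 to 523 bases before the start codon, with a median of 336. The Abf1 core, the letters TCA and ACG with 6 bases of any kind between them, was found before 21.2% of members and 25.7% of all promoters, and the Stb3 letters, TG with 5 A and then TTT, before 6.06% and 5.42%. Members with and without the Rap1 core had medians of 0.12 and 0.11 with YFH1 off against on in WT (both 0.07 without WT replicate 2), and -0.20 and -0.18 in H113N against WT with YFH1 off. Of the 6 members that head the lists of rises and falls, 1 had a Rap1 core match, RPL23A, whose promoter stretch is shown as an example with the core in capitals (sacCer3, chrII:60889-60957, minus strand).
RPL23A: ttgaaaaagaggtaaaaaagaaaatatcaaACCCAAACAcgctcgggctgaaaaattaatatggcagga
A match describes these letters only, and their absence says nothing of the factor.

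Genes that work beside the ribosomal proteins were counted in the same fit. The acidic stalk proteins RPP0, RPP1A, RPP1B, RPP2A and RPP2B, which recruit translation factors, and the small-subunit scaffold ASC1 moved in the direction of the members' median: all 6 fell in H113N with YFH1 off (median -0.26; 25.2% of all tested genes were called lower), 4 of 6 fell with YFH1 on (median -0.19; 23.2%), all 6 rose with YFH1 off in WT (median 0.21; 24.5% of all tested genes were called higher) and 3 of 6 in H113N (median 0.15; 11.8%). RPP1A rose by 0.29 in WT (SE 0.0501, adjusted p = 1.58e-04 by edgeR) and RPP2A by 0.25 (SE 0.0449, adjusted p = 1.71e-04 by edgeR).

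Of 16 known regulators of ribosomal protein genes, 2 rose and 8 fell in H113N with YFH1 off, 1 rose and 6 fell in H113N with YFH1 on, 6 rose and 2 fell with YFH1 off in WT, and 1 rose with YFH1 off in H113N. Over all tested genes 52.4, 46.2, 49.5 and 20.6% were called in these comparisons, and the regulators' share called was near that of all genes for H113N with YFH1 on and for YFH1 in WT. The counts without WT replicate 2 were 1 rise and 7 falls for H113N with YFH1 on, and 5 rises and 3 falls for YFH1 in WT. HMO1, for a high-mobility-group protein that binds many of these promoters, and CRF1, for a corepressor that competes with Ifh1, were picked after their values were seen. HMO1 averaged 143.8 ± 5.39 CPM in H113N with YFH1 off, 134.6 ± 4.06 in H113N, 271.9 ± 17.2 in WT with YFH1 off and 272.8 ± 23.5 in WT (SD, n = 4 each). It fell in H113N, with log2 fold changes of -0.92 with YFH1 off (SE 0.0616, adjusted p = 3.20e-09 by edgeR) and of -1.02 with YFH1 on (SE 0.0619, adjusted p = 3.23e-09 by edgeR), and did not pass for YFH1. CRF1, a scarce message, averaged 9.86 ± 0.739 CPM in H113N with YFH1 off, 10.4 ± 1.56 in H113N, 5.12 ± 0.886 in WT with YFH1 off and 3.79 ± 0.300 in WT (SD, n = 4 each). It rose in H113N by 0.92 with YFH1 off (SE 0.134, adjusted p = 2.48e-05 by edgeR), and its log2 fold change was 1.45 with YFH1 on (SE 0.140, adjusted p = 4.57e-07 by edgeR). Another of the 16, DOT6, also picked after its values were seen, fell in H113N. Its log2 fold changes were -0.60 with YFH1 off (SE 0.0745, adjusted p = 4.46e-06 by edgeR) and -0.55 with YFH1 on (SE 0.0747, adjusted p = 1.70e-05 by edgeR). The genes picked do not stand for the whole list. Of the paired TOR kinase genes, TOR2 rose with YFH1 off in WT by 0.48 (SE 0.0434, adjusted p = 9.95e-08 by edgeR) while TOR1 fell by 0.42 (SE 0.0644, adjusted p = 4.05e-05 by edgeR).

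Of 11 dedicated chaperones of ribosomal proteins, 0 rose and 1 fell in H113N with YFH1 off, 2 rose in H113N with YFH1 on, 1 rose with YFH1 off in WT and 0 passed for YFH1 in H113N, against the same 52.4, 46.2, 49.5 and 20.6% of all tested genes. Without WT replicate 2, 1 rose and 3 fell in H113N with YFH1 on, and 1 rose and 2 fell with YFH1 off in WT, where the median of the list was -0.02 in place of 0.14. The gene that rose in WT was YAR1, the chaperone of Rps3, at 0.22 (SE 0.0751, adjusted p = 0.0221 by edgeR; 0.13 without WT replicate 2). FAP7, which acts with Rps14, had 0.14 (adjusted p = 0.0920 by edgeR), and 0.06 without WT replicate 2. Of 11 elongation factor genes, 2 rose and 4 fell in H113N with YFH1 off, 2 rose and 2 fell in H113N with YFH1 on, 3 rose and 2 fell with YFH1 off in WT, and 4 rose and 1 fell with YFH1 off in H113N, beside the same shares of all tested genes. Without WT replicate 2, 2 rose and 4 fell in H113N with YFH1 on, and 3 rose and 3 fell with YFH1 off in WT. Among them stood the eIF5A pair HYP2, used in air, and ANB1, used without oxygen. ANB1 averaged 39.4 ± 5.63 CPM in H113N with YFH1 off, 18 ± 0.988 in H113N, 69.4 ± 9.70 in WT with YFH1 off and 5.26 ± 1.42 in WT (SD, n = 4 each). HYP2 averaged 670.4 ± 37.6 CPM in H113N with YFH1 off, 871 ± 38.5 in H113N, 434 ± 22.3 in WT with YFH1 off and 1126 ± 41.6 in WT (SD, n = 4 each). With YFH1 off in WT, ANB1 rose by 3.72 (SE 0.160, adjusted p = 6.79e-12 by edgeR) and HYP2 fell by 1.37 (SE 0.0545, adjusted p = 2.61e-12 by edgeR). With H113N these log2 fold changes were 1.13 for ANB1 and -0.38 for HYP2. The contrast between the backgrounds passed the test for ANB1 at -2.58 and for HYP2 at 0.997 (adjusted p = 1.23e-07 and 4.73e-08 by edgeR).

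In the authors' deposited table of adjusted p-values, 95 members were called for H113N against WT with YFH1 off, of which 92 were called here. The authors' deposited table called 87 with YFH1 on, 86 of them called here. For YFH1 off against on, the authors' deposited table called 63 members in WT and 16 in H113N, which include all 58 and all 11 called here.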

How the data were processed

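Polyadenylated RNA of 16 yeast libraries was sequenced on an Illumina NovaSeq after KAPA mRNA library preparation, per the labels' protocols. The counts deposited by the authors are whole numbers per gene and library. They also deposited normalized counts, a signal in which each value is the count divided by 1 factor per library, with adjusted p-values of 4 comparisons; per the file headers these come from DESeq2. Per the submitters' processing notes, FastQC, cutadapt, HISAT2, featureCounts and DESeq2 were used with build sacCer3; versions, the annotation, strand and the treatment of reads with several matches are not given in the sources used here. No column was left without a sample (0 columns).

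The deposited counts were tested in R 4.3.3 with edgeR 4.0.16 (limma 3.58.1): filterByExpr kept 5876 of 6692 genes, with TMM scaling, a mean per group over all 16 libraries and glmQLFTest with Benjamini-Hochberg adjustment at 0.05. Contrasts were YFH1 off minus on and H113N minus WT on each background, and the difference of the YFH1 effects. Fold changes are TMM-scaled log2 values with their SE. On simulated counts the procedure was checked before use. DESeq2 1.42.0 was an alternative test. Values without WT replicate 2, or another single WT library, and those without the chromosome II members were added after seeing the data. Coordinates, coding lengths (without UTRs), introns and promoters came from the RefSeq annotation of R64, the same build as sacCer3, which held all 132 members. Repeated sequence was counted as 50-base words of the coding exons that were found elsewhere in the genome, so introns and UTRs were not covered.

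The members and lists were chosen with earlier results of these data known. Named genes were the 3 largest rises and falls per comparison among called members averaging at least 10 CPM with the same sign in all 4 same-numbered differences, the 3 highest and lowest members per kb, the 3 pairs per comparison with the largest gap between paralogs and A shares that did not overlap, and 2 genes per further list with the smallest adjusted p in WT. Pairs chosen for not overlapping were given no permutation p. Replicates of a group differed by more than counting noise (chi-square per degree of freedom 2.91 to 74.7 over 24 pairs of libraries), so each counted once. Totals of 6694390 to 10663540 put 3 counts at 0.281 to 0.448 CPM, for counting error only. Sequence stretches are those of the pair with the largest gap in each comparison, as coding sequence because no protein table was used here, and of the promoters of first-named members with a Rap1 core match. One gene that the rule for named genes picked is not reported here.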

Additional observations from a re-analysis of the deposited data

Results flagged for a closer look

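A sample far from the others was looked for in 80 groups of 4 libraries, and 6 were found; chance alone flags about 1 in 20 groups. RPL18B stood at 139.6 CPM in WT replicate 2, below the other WT libraries at 194.8 to 202.4 CPM. RPL19B stood at 1679 CPM in H113N replicate 5, above the others at 1516 to 1537 CPM. RPL32 stood at 1707 CPM in the same library, above the others at 1527 to 1554 CPM. RPL19B stood at 1494 CPM in WT with YFH1 off replicate 5, below the others at 1579 to 1594 CPM. RPS6B stood at 388 CPM in the same library, below the others at 407 to 410 CPM. RPS22B stood at 448 CPM in WT with YFH1 off replicate 3, above the others at 410 to 415 CPM.

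The effect of YFH1 differed between H113N and WT for 16 of 132 members (12.1%), by the test of the difference itself, where 30.8% of all tested genes were called. Those named by the rule were RPL18B (0.48), RPL1A (0.38), RPS14A (0.24), RPS14B (-0.995), RPL41B (-0.57) and RPS22B (-0.55), as the log2 fold change in H113N minus that in WT. The same difference for YFH1 itself was 0.84.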

How the results depend on the processing

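With library size as the only scaling, members called numbered 36 for YFH1 off against on in WT (58 under TMM scaling), 55 (87) for H113N against WT with YFH1 on, and 57 (92) in the YFH1-off libraries, and medians were 0.00077 for YFH1 in WT, 0.030 for YFH1 in H113N, -0.10 for H113N with YFH1 on, -0.062 with YFH1 off and 0.031, turned in sign, for the contrast between the YFH1 effects. A change of scaling moves all genes of a comparison by nearly the same amount. The members' distance from the median of all genes was therefore bound to stay, and it moved by less than 0.01. DESeq2 made 19 calls for YFH1 in H113N (11 by edgeR), and fitting only the groups compared gave 52 for H113N with YFH1 on. Without the chromosome II members, 10 of the 16 calls on the contrast between YFH1 effects were left. Leaving out replicates gave 30 to 62 calls for YFH1 in WT and 3 to 15 for YFH1 in H113N. It gave 51 to 95 for H113N with YFH1 on and 66 to 90 for H113N with YFH1 off. For the contrast between YFH1 effects it gave 6 to 20. The median of that contrast ran from -0.080 to 0.033. This median was positive without replicate 2 of every group and at 0.015 without WT replicate 2 alone. Pairs whose A shares did not overlap numbered 22 to 36 for YFH1 in WT and 19 to 35 for H113N with YFH1 on, counts that leaving out libraries can only keep or raise. Among the 31 pairs with under 10% repeated words in both copies, 9 did not overlap for YFH1 in WT, 6 for YFH1 in H113N and 23 for H113N with YFH1 off. Without the 10 most abundant other genes in the total, the members' share was 12.4% in H113N with YFH1 off, 12.0% in H113N, 13.3% in WT with YFH1 off and 13.2% in WT; members with under 10% repeated words held 8.00, 7.88, 8.44 and 8.55% in the same groups. Of the tests of named genes under all alternatives, 303 kept their side of the threshold and 20 lost it, all with the same sign; except as stated above, the cause was not tested. Counts of 253 or more per library mean that depth limits only the smallest changes.

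Correlations of same-numbered libraries ran from -0.20 to 0.23 and 8 of 24 passed 0.1. Among the groups other than WT they were positive throughout for replicate 2 (0.11 to 0.23) and replicate 4 (0.19 to 0.21). In the same groups they ran from -0.026 to 0.047 for replicate 3 and from 0.066 to 0.15 for replicate 5. A weak effect shared by replicate number outside WT may therefore be present, and the main fit leaves it out. With the number as a replicate block, members called numbered 61 (YFH1 in WT), 13 (YFH1 in H113N), 87 (H113N, YFH1 on), 93 (H113N, YFH1 off) and 18 (contrast between YFH1 effects), and RPS6B lost its call for YFH1 in H113N.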
